A study of Mus musculus with 4 samples.

Results

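The mRNA of 4 subunits of class IA phosphoinositide 3-kinase (PI3K) was followed in mouse lungs. The genes, Pik3ca, Pik3cb, Pik3r1 and Pik3r2, were taken by name from the 84 targets of an insulin signaling PCR array, with earlier results of these data known. Whole lung lobes came from wild-type mice (p16+/+, strain B6(Cg)-Tyrc-2J/J) and from p16-/- mice, whose Cdkn2a tm3.1Nesh allele places luciferase at the p16 locus and which also carry Tyr c-2J. Room air (RA) mice were 24 weeks old by the labels, while mice given cigarette smoke (CS) are listed at 8 weeks of age with 16 weeks of CS. Of the wild type, 4 lungs in RA and 4 after CS had values used here, and of p16-/- mice 3 lungs in RA and 4 after CS. Both genotypes carry the albino tyrosinase allele, the lines were obtained as separate strains, and p16 is lacking in every cell of the knockout rather than in one lung cell type. Cdkn2a, the gene for p16, is not on the array, so its loss was not checked in these values, and the array holds no defining marker of a lung cell.

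Class IA PI3K is a dimer of a catalytic subunit, p110, and a regulatory subunit, p85, that stabilizes p110, keeps it quiet and carries it to tyrosine-phosphorylated receptors and adaptors. Pik3ca encodes p110α, the isoform best known for insulin and growth factor signaling, and Pik3cb encodes p110β, which can also respond to G protein-coupled receptors. Pik3r1 encodes p85α and, from internal starts, the shorter p55α and p50α, and Pik3r2 encodes p85β. The lipid made by the dimer recruits Pdpk1 and Akt kinases to the membrane, a route to growth and survival, and p85 not bound to p110 can compete for the same docking sites, so the balance of the subunits is of interest as well as their amounts. p16 itself inhibits the cyclin D kinases.

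The DNA in front of a listed start of each gene is shown because the 4 mRNAs come from 4 separate loci, and what these promoters share was not used to choose them. Each is the 250 bases before the listed transcript start in the RefSeq table of GRCm38.p6, 5′ to 3′ on the strand of the gene, and all 4 symbols matched. The window of Pik3cb overlaps the listed span of the gene by 24 bases, and those of the other 3 genes lie outside it. Capitals mark matches on either strand to the GC box GGGCGG, the CCAAT box CCAAT or the TATA box TATAAA, and no 2 matches overlap.
Pik3ca: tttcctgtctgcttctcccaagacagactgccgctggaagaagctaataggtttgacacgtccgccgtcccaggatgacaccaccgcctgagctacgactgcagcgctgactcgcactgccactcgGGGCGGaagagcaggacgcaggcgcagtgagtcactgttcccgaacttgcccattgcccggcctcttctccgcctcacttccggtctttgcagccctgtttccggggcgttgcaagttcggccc
Pik3cb: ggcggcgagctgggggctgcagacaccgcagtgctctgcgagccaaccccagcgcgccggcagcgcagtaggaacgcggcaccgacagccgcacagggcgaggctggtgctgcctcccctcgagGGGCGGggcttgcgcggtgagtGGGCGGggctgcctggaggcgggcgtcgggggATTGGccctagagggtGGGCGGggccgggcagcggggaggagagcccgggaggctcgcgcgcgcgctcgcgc
Pik3r1: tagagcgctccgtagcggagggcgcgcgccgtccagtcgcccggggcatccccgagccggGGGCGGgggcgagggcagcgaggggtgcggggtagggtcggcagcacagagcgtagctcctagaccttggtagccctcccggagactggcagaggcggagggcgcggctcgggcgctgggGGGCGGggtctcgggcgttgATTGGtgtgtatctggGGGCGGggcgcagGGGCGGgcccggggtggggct
Pik3r2: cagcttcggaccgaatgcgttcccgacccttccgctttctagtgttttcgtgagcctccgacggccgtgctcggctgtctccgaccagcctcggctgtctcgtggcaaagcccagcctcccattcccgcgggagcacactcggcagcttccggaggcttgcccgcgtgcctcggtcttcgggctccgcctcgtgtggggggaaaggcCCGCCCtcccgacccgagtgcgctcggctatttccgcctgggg
They lie at chr3:32396815-32397064 (+ strand) for Pik3ca, chr9:99140212-99140461 (- strand) for Pik3cb, chr13:101768218-101768467 (- strand) for Pik3r1 and chr8:70776713-70776962 (- strand) for Pik3r2. All 4 are rich in GC and CpG, with 61.6% GC and 19 CpG for Pik3ca, 78% and 32 for Pik3cb, 76.4% and 30 for Pik3r1, and 68.4% and 29 for Pik3r2, where the median of 32851 promoter windows of this length was 52.4% GC and 6 CpG. A GC box occurred in all 4, with 1 match for Pik3ca, 3 for Pik3cb, 4 for Pik3r1 and 1 for Pik3r2, and in 32.7% of all windows. A CCAAT box occurred once for Pik3cb and once for Pik3r1, and in 33.8% of all windows. A second start of Pik3r1, inside the gene at chr13:101692631-101692880, was of the other kind, with 42.4% GC, 6 CpG, no GC box and 1 TATA box, a motif found in 12.4% of windows. The E2F sequences TTTCGCGC (0.256% of windows) and TTTGGCGC (0.417%) and the forkhead sequence TGTTTAC (3.17%) were not found in any of these windows. Which start of Pik3r1 the array's assay reads is not stated in the sources used here. No readout of these promoters was made, so the sequences are a description.

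Expression was read as the threshold cycle (CT) of the PCR, which comes earlier the more cDNA a lung yields, by 1 cycle for each doubling where the assay is fully efficient. The level of a gene in a lung is given as -ΔCT, the mean CT of Actb, B2m, Gapdh, Gusb and Hsp90ab1 (the 5 reference genes) minus the CT of the gene, on a log2 scale. For p16+/+ RA lung 1, CTs of Gusb and Hsp90ab1 were lacking, so its reference mean is the one implied by a per-lung value of the study, used as a scaling alone. None of the 60 CTs of the subunits was blank, and 1 was over the limit of 35 cycles and was set to 35. The median CT of the 84 targets ran, in the wild type, from 29.4 to 30.7 cycles in RA and 28.2 to 31.7 under CS, and, without p16, from 27.3 to 27.9 and 26.5 to 27.8, so CTs were later in the wild-type lungs. CTs of 1 gene can be compared between lungs, but CTs of different genes also hold the efficiency of each assay and were not read as an order of abundance.

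Catalytic subunits were measured first. In p16+/+ RA lungs 1 to 4, the -ΔCT of Pik3ca was -5.96, -4.68, -4.41 and -3.36. In p16+/+ CS lungs it was -5.06, -4.00, -4.65 and -5.37. The CS lungs all lay within the range of the RA lungs. Without p16, Pik3ca was at -3.26, -4.01 and -2.78 in RA lungs. Under CS the p16-/- lungs were at -5.23, -1.70, -4.52 and -1.60. Of the p16-/- RA lungs, 1 and 3 were above every wild-type RA lung, and of the p16-/- CS lungs, 2 and 4 were above every wild-type CS lung while 1 and 3 were within their range. By mean ± SD the order was p16-/- CS (-3.26 ± 1.88, n = 4), p16-/- RA (-3.35 ± 0.62, n = 3), p16+/+ RA (-4.60 ± 1.07, n = 4) and p16+/+ CS (-4.77 ± 0.59, n = 4). No 2 neighbors in this order were separated beyond their spread.

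Pik3cb showed the same layout. In p16+/+ RA lungs its -ΔCT was -6.42, -5.52, -7.15 and -4.39. In p16+/+ CS lungs it was -5.84, -4.58, -7.00 and -5.98. RA and CS again overlapped throughout in the wild type. Pik3cb was at -3.79, -5.00 and -4.02 in p16-/- RA lungs. The p16-/- CS lungs were at -6.52, -2.48, -4.63 and -1.83. Again 2 of the 3 p16-/- RA lungs and 2 of the 4 p16-/- CS lungs were above every wild-type lung of the same exposure, and CS lung 1 was the lowest of its group. The group means were -3.87 ± 2.14 (p16-/- CS, n = 4), -4.27 ± 0.64 (p16-/- RA, n = 3), -5.85 ± 0.99 (p16+/+ CS, n = 4) and -5.87 ± 1.19 (SD, p16+/+ RA, n = 4), and neighbors in this order overlapped.

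Among the regulatory subunits, Pik3r1 was the most uniform of the 4 genes in wild-type RA lungs and the most variable in p16-/- CS lungs. Its -ΔCT was -6.02, -6.06, -5.81 and -6.17 in p16+/+ RA lungs. In p16+/+ CS lungs it was -6.38, -4.68, -6.08 and -6.06. Of these 8 lungs 7 lay within a narrow band and CS lung 2 was above it. Pik3r1 was at -3.34, -6.13 and -4.40 in the RA lungs without p16. Under CS these were at -10.41, -4.15, -4.32 and -1.05. The lowest of these, p16-/- CS lung 1, is the CT of 36.03 cycles that was set to 35. Means were -4.62 ± 1.41 (p16-/- RA, n = 3), -4.98 ± 3.92 (p16-/- CS, n = 4), -5.80 ± 0.76 (p16+/+ CS, n = 4) and -6.02 ± 0.15 (SD, p16+/+ RA, n = 4), with overlap between all neighbors.

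Pik3r2 was spread to both sides of the wild-type range in p16-/- lungs. In p16+/+ RA lungs its -ΔCT was -5.93, -5.35, -6.11 and -7.06. In p16+/+ CS lungs it was -5.83, -5.58, -5.36 and -6.62. The wild-type lungs shared 1 range. The p16-/- RA lungs had Pik3r2 at -5.62, -8.26 and -6.36. The p16-/- CS lungs had it at -8.64, -5.92, -6.15 and -2.92. RA lung 2 and CS lung 1 were below all wild-type lungs and CS lung 4 was above them. The means were -5.85 ± 0.55 (p16+/+ CS, n = 4), -5.91 ± 2.34 (p16-/- CS, n = 4), -6.11 ± 0.71 (p16+/+ RA, n = 4) and -6.75 ± 1.36 (SD, p16-/- RA, n = 3), and no neighbors were separated.

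**Figure D1:**
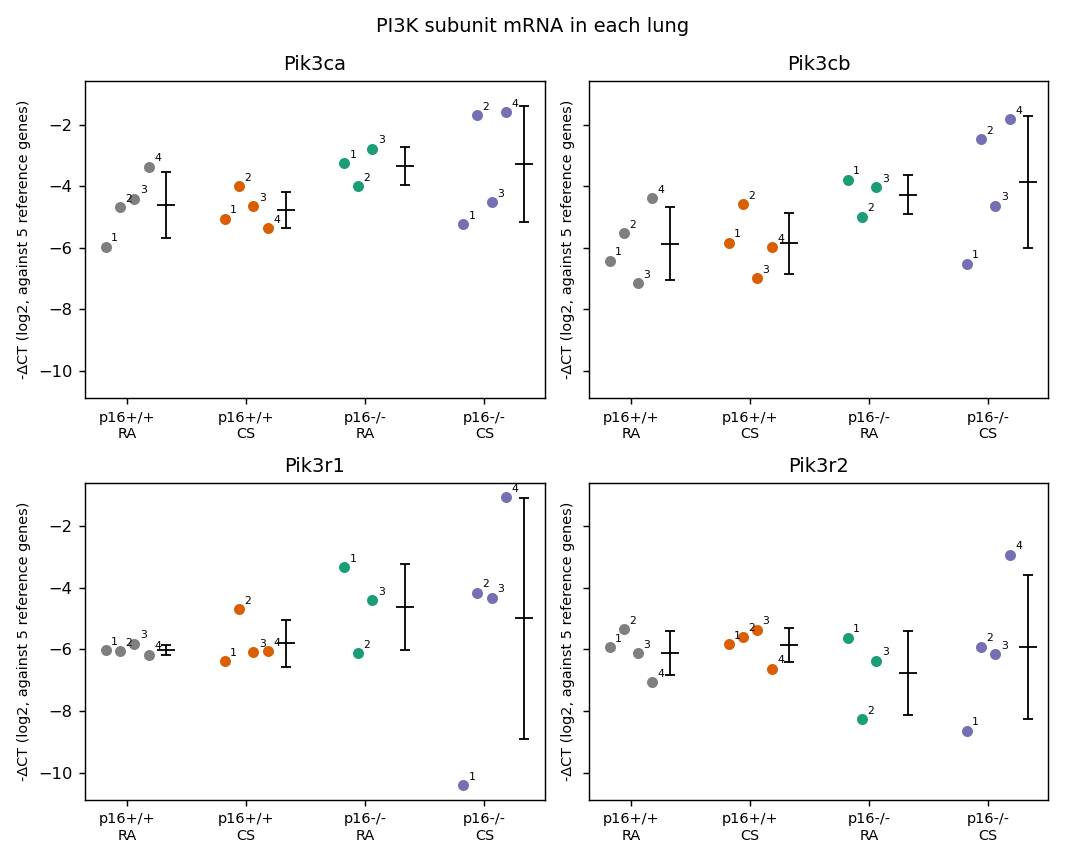
The log2 level (-ΔCT against 5 reference genes) of each subunit is plotted for every lung, numbered within its group, with bars for the mean and SD of the group (n = 4, 4, 3 and 4). The p16-/- CS lungs are the most spread in all 4 panels, and lung 1 of that group is at -10.41 for Pik3r1.

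The effect of p16 deletion in RA was compared first, in a limma fit over all 84 targets with Benjamini-Hochberg adjustment. The estimate for Pik3ca in p16-/- minus wild-type lungs was 1.26 on the log2 scale (SE 0.90, 95% interval -0.65 to 3.17, 2.39-fold, limma adjusted p = 0.321), and 3 of 3 p16-/- lungs were above the wild-type mean. For Pik3cb it was 1.60 (SE 1.01, interval -0.55 to 3.75, 3.03-fold, limma adjusted p = 0.256), with 3 of 3 lungs above that mean. For Pik3r1 it was 1.39 (SE 1.46, interval -1.71 to 4.50, limma adjusted p = 0.543), with 2 of 3 above. Thus the 3 genes had positive estimates of like size, none past the threshold of 0.05. For Pik3r2 the estimate was -0.64 (SE 1.03, interval -2.82 to 1.55, limma adjusted p = 0.708), with 1 of 3 lungs above the wild-type mean. Hence 0 of 4 subunits were called, where 28.6% of the 84 targets were called higher and 5.95% lower. All 4 subunits also overlapped between the genotypes, where 44% of targets did not. The median change of the 4 was 1.32 and that of all 84 targets was 0.90. By two-sided exact permutation test over the lungs, whose smallest possible p is 0.0286, p was 0.143 for Pik3ca, 0.114 for Pik3cb, 0.114 for Pik3r1 and 0.514 for Pik3r2, and none passed after adjustment over the 84 targets (0.273, 0.223, 0.223 and 0.686).

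The same comparison was made under CS. The estimate for Pik3ca was 1.51 (SE 0.83, 95% interval -0.26 to 3.27, 2.84-fold, limma adjusted p = 0.161). The largest estimate of the 4 was that of Pik3cb, at 1.98 (SE 0.94, interval -0.0085 to 3.97, 3.95-fold, limma adjusted p = 0.110, from 0.0509 before adjustment). For both genes 3 of 4 p16-/- CS lungs were above the wild-type mean and 2 of 4 were above all wild-type lungs. Pik3r1 had an estimate of 0.82 (SE 1.35, interval -2.05 to 3.69, limma adjusted p = 0.646) and Pik3r2 of -0.059 (SE 0.95, interval -2.08 to 1.96, limma adjusted p = 0.963). Again 0 of 4 were called, against 38.1% of targets higher and 1.19% lower, and all 4 overlapped between the genotypes, where 39.3% of targets did not. The median was 1.16 for the subunits and 1.46 for all targets. Exact permutation p-values (two-sided) were 0.257, 0.200, 0.686 and 0.943 for Pik3ca, Pik3cb, Pik3r1 and Pik3r2.

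The calls under CS depended on 1 lung and, on the reference. Without p16-/- CS lung 1, in the same limma fit, Pik3ca was 2.16 higher (limma adjusted p = 0.0383), Pik3cb 2.87 higher (limma adjusted p = 0.0108) and Pik3r1 2.63 higher (limma adjusted p = 0.0185), while Pik3r2 was at 0.85 (limma adjusted p = 0.406). In that setting 45.2% of targets were called higher and 0% lower. With lungs weighted by how well they fitted, Pik3ca (2.02, limma adjusted p = 0.0277) and Pik3cb (2.40, limma adjusted p = 0.0189) were called and Pik3r1 (1.13, limma adjusted p = 0.327) was not, with 45.2% of targets called higher and 3.57% lower. Without p16-/- CS lung 4, the estimate of Pik3r1 turned to -0.49 (limma adjusted p = 0.727). In RA, leaving out p16-/- lung 2 turned Pik3r2 from -0.64 to 0.12 (limma adjusted p = 0.950).

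**Figure D2:**
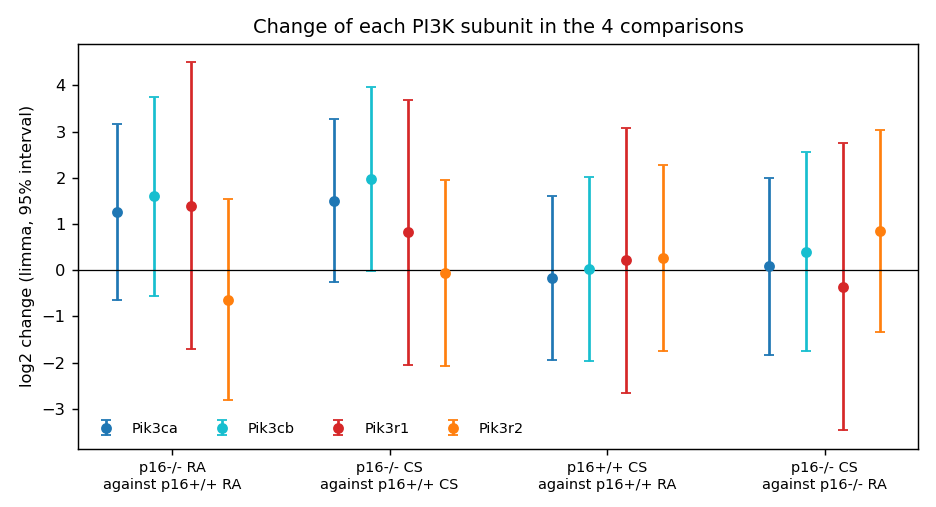
The log2 change of each subunit in 4 comparisons is shown as the limma estimate with its 95% interval. Every interval includes 0, the nearest being Pik3cb under CS (-0.0085 to 3.97), and the intervals of Pik3r1 are the widest.

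CS itself was then compared with RA within each genotype. In p16+/+ lungs the changes with CS were -0.17 for Pik3ca (95% interval -1.93 to 1.60), 0.021 for Pik3cb (-1.97 to 2.01), 0.21 for Pik3r1 (-2.66 to 3.09) and 0.27 for Pik3r2 (-1.75 to 2.29). These were small beside the spread between lungs, but the intervals leave room for changes of over 2-fold either way. The limma adjusted p was 0.983 for each, and 0% of targets were called, none even at an unadjusted limma p under 0.05. In p16-/- lungs the changes were 0.082 for Pik3ca (-1.83 to 1.99), 0.40 for Pik3cb (-1.74 to 2.55), -0.36 for Pik3r1 (-3.46 to 2.74) and 0.84 for Pik3r2 (-1.34 to 3.03), with limma adjusted p between 0.794 and 0.967. Of the 84 targets 0% were called here and 1 had an unadjusted limma p under 0.05. The difference of the CS effect between the genotypes, tested as an interaction, was 0.25 for Pik3ca, 0.38 for Pik3cb, -0.57 for Pik3r1 and 0.58 for Pik3r2 (limma adjusted p = 0.990 for each), and 0% of targets were called, with none at an unadjusted p under 0.05. The 4 comparisons share groups, so their values are set side by side and were not correlated.

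The level of every subunit rests on the reference genes, whose CTs differed between the genotypes. The mean CT of Gapdh in p16-/- minus wild-type lungs was -4.46 cycles in RA and -3.72 under CS, so it came earlier without p16, and that of Actb was -1.79 and -0.80. The differences were 0.74 and 0.26 cycles for B2m, -0.032 and 0.16 for Gusb, and 0.89 and 0.95 for Hsp90ab1, where the RA values of the last pair hold a filled-in CT for p16+/+ lung 1. With Gapdh left out of the reference, Pik3ca was 2.28 higher (limma adjusted p = 0.0373) and Pik3cb 2.75 higher (limma adjusted p = 0.0238) in p16-/- CS lungs, among 53.6% of targets called higher. For RA, where 38.1% of targets were called higher in this setting, the values were 2.14 (limma adjusted p = 0.0742) and 2.48 (limma adjusted p = 0.0681). With no reference at all, CTs of Pik3ca and Pik3cb were 2.13 and 2.61 cycles earlier in p16-/- CS lungs (limma adjusted p = 0.0387 for both, 56% of targets called higher). With Gapdh alone, all 4 subunits had negative estimates in both comparisons, and Pik3r2 was called lower in RA (-4.17, limma adjusted p = 0.00883, 52.4% of targets called lower) and CS (-3.15, limma adjusted p = 0.0495, 23.8%). Set against the median of the 84 targets, the estimates were -0.20, 0.14, -0.067 and -2.10 in RA and -0.49, -0.013, -1.18 and -2.05 under CS for Pik3ca, Pik3cb, Pik3r1 and Pik3r2. The sign of every subunit therefore depended on the reference, while Pik3r2 had the lowest estimate of the 4 under each of them, an order that a reference shared by all genes of a lung cannot change.

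**Figure D3:**
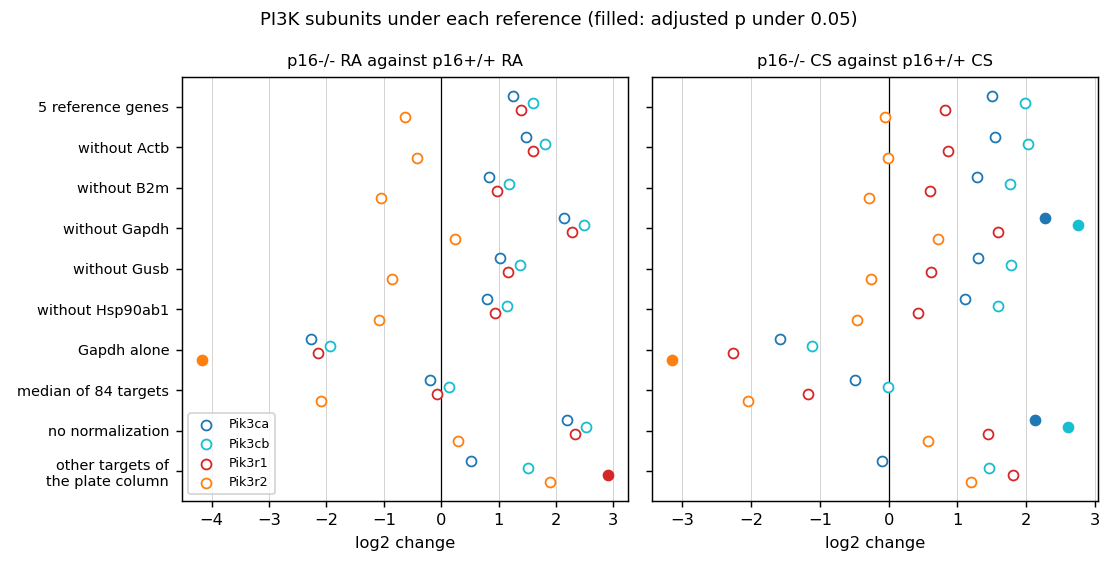
The log2 change of each subunit between genotypes is plotted for RA and CS under 10 references, with filled points for an adjusted p under 0.05 in limma. All 4 points lie below 0 with Gapdh alone, and Pik3ca and Pik3cb are filled under CS without Gapdh (2.28 and 2.75) and without normalization (2.13 and 2.61).

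Values also moved with the position of an assay on the plate, and differently in the 2 genotypes. The 4 subunits occupy neighboring wells of 1 plate row, E09 for Pik3ca, E10 for Pik3cb, E11 for Pik3r1 and E12 for Pik3r2. Between the genotypes in RA, the 56 targets of plate columns 1 to 8 had a median change of 1.78, and the 24 other targets of columns 9 to 12 a median of -0.77. Under CS these medians were 2.17 and -0.13. Columns 7 and 8 lay near columns 9 and 10 in RA, with medians of -0.0045 and 0.18, and were at 1.01 and 1.77 under CS. The targets of columns 9 to 12 minus those of columns 1 to 8 gave, in mean CT, -1.90 to -0.15 cycles in wild-type RA lungs and -0.91 to -0.63 in wild-type CS lungs. Without p16 the difference was 0.050 to 2.90 cycles in RA and -0.17 to 3.67 under CS, so the later columns tended to come later. The value of 3.67 belongs to p16-/- CS lung 1. Position and genotype cannot be told apart in the level of 1 gene, so each subunit was set beside its own column. In RA, Pik3ca (1.26) was above 4 of the 6 other targets of column 9, whose median was 0.30. Pik3cb (1.60), Pik3r1 (1.39) and Pik3r2 (-0.64) were above 6 of 6 others in columns 10, 11 and 12, whose medians were 0.099, -1.61 and -2.37. Under CS, Pik3ca (1.51) was above 2 of 6 (median 1.65), Pik3cb (1.98) above 6 of 6 (0.54), Pik3r1 (0.82) above 6 of 6 (-0.67) and Pik3r2 (-0.059) above 5 of 6 (-0.77).

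With the median of the other 6 targets of the column in place of the reference genes, Pik3r1 was 2.90 higher in p16-/- RA lungs (SE 0.86, limma adjusted p = 0.0183), the only subunit called, where 11.9% of targets were called higher and 14.3% lower. The p16+/+ RA and p16-/- RA lungs still overlapped for Pik3r1, from -4.10 to -1.12 and from -1.85 to 1.55 on this scale. Pik3r2 was at 1.89 (limma adjusted p = 0.0627), Pik3cb at 1.51 (limma adjusted p = 0.102) and Pik3ca at 0.51 (limma adjusted p = 0.431). Under CS the values were 1.82 for Pik3r1 and 1.46 for Pik3cb (limma adjusted p = 0.0859 for both), 1.20 for Pik3r2 (limma adjusted p = 0.166) and -0.099 for Pik3ca (limma adjusted p = 0.893), with 14.3% of targets called higher and 21.4% lower. On this scale the order of the subunits changed, with both regulatory genes above Pik3ca. The scale takes in the plate column and not the plate row.

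**Figure D4:**
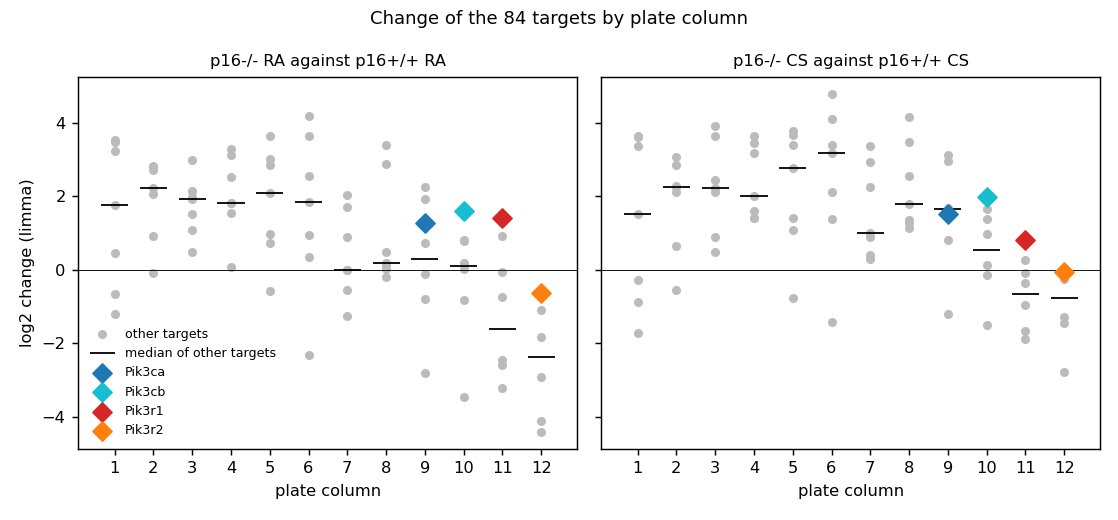
The log2 change between genotypes in limma is plotted against plate column for all 84 targets, with lines at the median of the other targets of a column and diamonds for the subunits. In RA the lines lie between 1.75 and 2.21 in columns 1 to 6, at -0.0045 and 0.18 in columns 7 and 8, and fall to -1.61 and -2.37 in columns 11 and 12, and Pik3cb, Pik3r1 and Pik3r2 stand above all other targets of their columns.

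The balance between 2 subunits can be read within a lung as a difference of 2 CTs, which needs no reference gene. These log2 ratios were not tested. Pik3r1 over Pik3r2 was -0.086, -0.71, 0.30 and 0.89 in p16+/+ RA lungs. It was -0.56, 0.90, -0.72 and 0.57 in p16+/+ CS lungs. The wild-type groups overlapped and held values on both sides of 0. Without p16 the ratio was 2.29, 2.14 and 1.96 in RA. Under CS the p16-/- lungs had -1.77 (with the Pik3r1 CT set to 35), 1.76, 1.83 and 1.87. Thus 6 of 7 p16-/- lungs lay between 1.76 and 2.29, above all 8 wild-type lungs, whose highest value was 0.90, and the exception was p16-/- CS lung 1. The difference of the means was 2.03 in RA, without overlap, and 0.88 in CS, or 0.62 with no CT limit. The CS difference became 1.77, without overlap, when that lung was left out after its values had been seen. In that setting 38.3% of all pairs of targets and 36.2% of pairs within plate columns 9 to 12 were without overlap. With all lungs, ratios without overlap were common on the array: 31.2% of all pairs of targets in RA, and 22.2% of pairs within plate columns 9 to 12. Between columns 11 and 12 the other targets differed, by the same reckoning, by -0.93 to 2.73 (RA) and -0.74 to 1.35 (CS) in the wild type and by 0.27 to 3.66 and 0.045 to 2.07 without p16, so these did overlap between the genotypes. The part of plate position in the ratio was not tested.

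Catalytic over regulatory ratios were less even. Pik3cb over Pik3r2 was 0.24 ± 1.66 (RA) and 0.00036 ± 1.17 (CS) in wild-type lungs and 2.48 ± 0.73 and 2.04 ± 1.02 in lungs without p16 (mean ± SD). The genotypes did not overlap under CS (1.09 to 3.43 against -1.64 to 1.00) and overlapped in RA through p16+/+ lung 4 (2.67). Under CS, 32.2% of all pairs of targets, and 21.2% of pairs within plate columns 9 to 12, were without overlap. Pik3ca over Pik3r2 was 1.51, 1.08, 3.40 and 2.64 on average in the same order of groups, with overlap. Against Pik3r1, the ratio of Pik3ca was 1.41 ± 1.12, 1.03 ± 0.40, 1.28 ± 1.06 and 1.72 ± 2.67. The last mean holds the Pik3r1 CT set to 35 and was 1.98 with no CT limit. Between the 2 catalytic subunits, the CT of Pik3ca was earlier than that of Pik3cb in 15 of 15 lungs, by 1.27 ± 1.01, 1.08 ± 0.85, 0.92 ± 0.36 and 0.60 ± 0.54 cycles, and the groups overlapped. The ratio of each of the other 3 subunits over Pik3r2 thus had a higher mean in p16-/- than in wild-type lungs, in RA and under CS. The other targets of their plate columns moved in the same direction. Column 9 over column 12 ran from -2.54 to 3.02 and -1.30 to -0.37 in the wild type (RA and CS) and from -0.0066 to 4.70 and 0.10 to 4.24 without p16. Column 10 over column 12 averaged 0.34 and -0.42 in the wild type against 2.96 and 1.36 without p16, and column 11 over column 12 averaged 0.84 and 0.40 against 1.86 and 0.66.

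**Figure D5:**
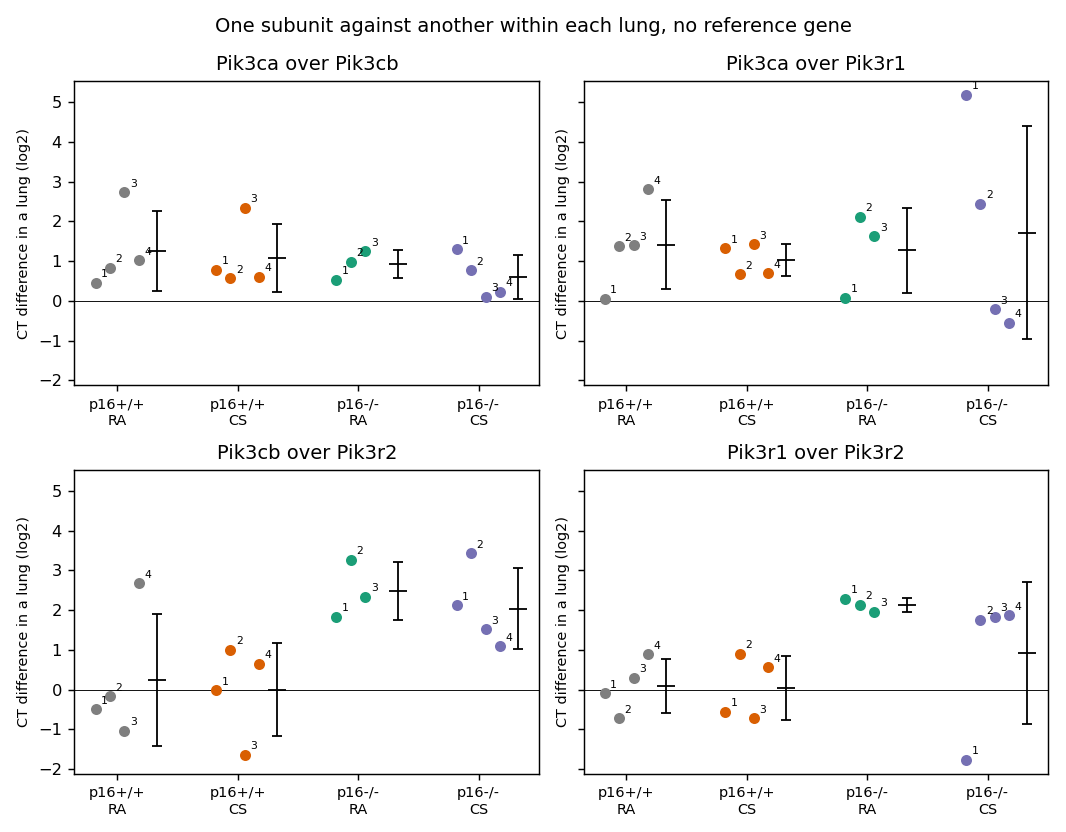
The CT difference between 2 subunits (log2 ratio) is plotted for each numbered lung, with the mean and SD of the group. For Pik3r1 over Pik3r2, 6 of 7 p16-/- lungs lie at 1.76 to 2.29 and the 8 wild-type lungs at -0.72 to 0.90. In the same panel p16-/- CS lung 1 lies at -1.77, with its Pik3r1 CT set to 35.

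Across the 15 lungs, targets whose -ΔCT was most like each subunit were sought by Pearson's r, as a description that also holds the groups, the shared reference and the plate. Pik3ca was most like Eif4ebp1 (r = 0.89), a translation repressor downstream of PI3K, then Pik3cb (0.89) and the phosphatase Ptprf (0.85). Pik3cb was likewise near Pik3ca (0.89) and Eif4ebp1 (0.88). Among those nearest to Pik3r1 were the kinase Braf (0.84) and Cap1 (0.83), and to Pik3r2 the kinase Rps6ka1 (0.93) and leptin (Lep, 0.92). Within the subunits r was 0.89 between the catalytic genes and 0.79 between the regulatory genes, and Pik3r2 was at 0.41 with Pik3ca and 0.43 with Pik3cb. Plate columns 9 to 12, with 28 of the 84 targets, hold the 3 nearest targets of each subunit, 12 in all, and 7 of these lie in the column of the subunit itself. The median r with all targets was 0.65 for Pik3ca, 0.60 for Pik3cb, 0.37 for Pik3r1 and 0.21 for Pik3r2.

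Genes next to PI3K in the pathway were read in the same fit. Of 4 docking partners of p85 (Igf1r, Irs1, Irs2 and Gab1), 1 was higher in p16-/- lungs in RA and 1 under CS, in both cases the adaptor Irs1 (2.54, limma adjusted p = 0.0225, and 3.17, limma adjusted p = 0.00308), and the next largest change was that of the adaptor Gab1 (0.97 and 1.07, not called). Of 9 effectors, among them Pdpk1, Akt1, Prkci, Prkcz and Mtor, 4 were higher and 1 lower in RA and 5 higher and 1 lower under CS. The share of all targets called in RA was 28.6% higher with 5.95% lower, and under CS it was 38.1% with 1.19%, so the count of the docking partners was near that share. Among the effectors, the atypical protein kinase C Prkci was 3.63 and 3.67 higher and the kinase Pdpk1 3.38 and 3.47 higher. Akt1 was called higher in both comparisons, at 3.76 under CS. Prkcz was the lower gene in both, at -2.33 and -1.42. These calls depended on the reference too. With Gapdh alone, 0% of targets were called higher in RA or under CS, so no higher call of Irs1 or an effector held there. In that setting 52.4% and 23.8% of targets were called lower. Among Ras GTPases that can bind p110, Hras of plate column 12 was lower in RA (-2.91, limma adjusted p = 0.0369) and was not called under CS (-1.44), and Rras2 was at 0.90 in RA, not called. The median change was 0.71 in RA and 0.98 in CS for the docking partners and 1.97 and 2.97 for the effectors, where that of the 4 subunits was 1.32 and 1.16. All called effectors lie in plate columns 3 to 8. The docking partners also lie in columns 1 to 8, as do the effectors other than Eif4ebp1 and Gsk3b. The median change of the targets of columns 1 to 8 was 1.78 in RA and 2.17 under CS. In columns 9 to 12, which hold the subunits, that of the other targets was -0.77 and -0.13. The medians of the lists and of the subunits therefore differ in plate position too, whose part was not tested.

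Markers of other cells on the array were set beside these values. Of 4 adipocyte genes (Cfd, Lep, Retn and Ucp1), 1 was lower in p16-/- RA lungs (Retn) and 1 higher in p16-/- CS lungs (Cfd), beside 28.6% of all targets higher and 5.95% lower in RA and 38.1% and 1.19% under CS. The genes went opposite ways, with Retn at -2.47 and Ucp1 at -3.22 (not called) in RA, where the estimate of Cfd was positive and not called, and Cfd at 3.89 and Retn at -1.68 (not called) under CS. Their summed level (log2 of the summed relative amounts) ran from -0.66 to 1.01 (RA) and -1.53 to 1.03 (CS) in the wild type and from -2.44 to -1.62 and -1.71 to 0.92 without p16, so that the genotypes did not overlap in RA, as was so for 44% of single targets. Of 3 endocrine genes (Ins1, Prl and Tg), 1 was lower in RA (Tg, -3.47) and 1 higher under CS (Prl, 2.94). These genes also went opposite ways, with Ins1 at 1.80 and Prl at 1.71 in RA (neither called) and Tg at -1.50 under CS (not called). Their summed level was -3.05 to -1.64, -2.64 to -1.16, -1.24 to -0.56 and -1.56 to 1.15 in the same groups. It was higher in p16-/- RA lungs without overlap, where 44% of single targets also did not overlap. Of the CTs behind each of these sums, 1 p16-/- value in RA and 1 under CS lay at 35 cycles. Among the adipocyte genes, Retn and Ucp1 lie in plate column 11, Lep in column 12 and Cfd in column 3. In RA the targets other than the subunits had medians of -1.61 in column 11 and -2.37 in column 12. Of the endocrine genes, Tg lies in column 10, Ins1 in column 4 and Prl in column 7. The part of plate position in these sums was not tested, nor was the part of such cells in the values of the subunits. In lysates of whole lobes, fewer cells of a type and less mRNA per cell cannot be told apart.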

How the data were processed

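RNA from whole lung lobes was assayed by the authors on a QIAGEN PAMM030 PCR array with SYBR Green. The authors deposited 1 CT per gene and lung, a log2 quantity, before any normalization. A second deposited table holds the authors' own fold changes and p-values and was not used. Of 19 CT columns, 15 were taken as lungs, and 4 equal to the mean of their group were left out, where the study gives more lungs per group. No batch is given in the sources used here. The Gusb and Hsp90ab1 rows, 1 cell short, were moved by 1 place, and the reference mean of p16+/+ RA lung 1 was taken from the per-lung values of the study, used as a scaling alone. It differs by 0.0116 cycles from an estimate by the CTs of its group. Blank CTs or CTs over 35 were set to 35, which concerned 4 blank and 14 late of 1260 target CTs.

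-ΔCT was fitted with limma 3.58.1 in R 4.3.3, the 4 groups together (11 residual degrees of freedom), and p-values were adjusted over 84 targets by Benjamini-Hochberg, at 0.05. The script was tested on simulated data. Single genes had a two-sided exact permutation test. The p-values measure the spread between lungs, whose number limits the precision. Alternatives were other references, plate columns, CT limits, tests and weights, and leaving out each lung. The rest used Python 3.11.15 (pandas 2.3.3, numpy 2.4.6, scipy 1.17.1), with matplotlib 3.10.9 for plots. Named were the 4 subunits, for each the 3 targets with the highest r, the reference genes, and of each pathway list the called genes and those with the largest changes, and some of the genes so named are not reported here. The members and lists were chosen with earlier results of these data known.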

Additional observations from a re-analysis of the deposited data

How the results depend on the processing

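The subunits kept an adjusted p above 0.05 under most alternatives, and their signs depended on the reference. With Gapdh alone the change in RA was -2.27 for Pik3ca, -1.93 for Pik3cb, -2.14 for Pik3r1 and -4.17 for Pik3r2 and under CS -1.58, -1.11, -2.27 and -3.15, with 44 and 20 targets called. Against the median target it was -0.20 (Pik3ca) and -0.067 (Pik3r1) in RA and -0.49, -0.013 and -1.18 for Pik3ca, Pik3cb and Pik3r1 under CS. Without Gapdh in the reference Pik3r2 was at 0.25 in RA and 0.71 under CS, and Pik3ca and Pik3cb at 2.28 and 2.75 under CS. Without normalization Pik3r2 was at 0.30 and 0.57, and Pik3ca and Pik3cb at 2.13 and 2.61 under CS. Against the plate column Pik3r1 was at 2.90 and Pik3r2 at 1.89 in RA, and Pik3r2 at 1.20 and Pik3ca at -0.099 under CS. With array weights Pik3ca and Pik3cb were at 2.02 and 2.40 under CS. With a CT limit of 30, at which many subunit CTs are cut, Pik3ca was at 0.76 in RA and 0.96 under CS, Pik3cb at 0.030 and 0.90, and Pik3r1 at -0.13 in RA, and 0 targets were called in RA and 21 under CS. The number called in RA, 29 in the main setting, was 14 without B2m and 16 without Hsp90ab1. The exact permutation test called 0 in RA and 0 under CS after adjustment, and 23 and 33 targets at an unadjusted p under 0.05. With so few lungs the smallest p of this test is 0.0286, so a call after adjustment needs many targets at that value. The cause of the other changes was not tested.

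For CS against RA, where no setting called a subunit, signs turned as follows. In p16+/+ lungs Pik3ca was at 0.12 without normalization, Pik3cb at -0.16 (Gapdh alone), -0.024 (without Gusb), -0.030 (without Hsp90ab1), -0.14 (median target), -0.19 (CT limit of 30) and -0.020 (reference CTs at the deposited place), Pik3r1 at -0.074 (plate column), -0.21 (CT limit of 30) and -0.053 (array weights), and Pik3r2 at -0.46 (plate column) and -0.29 (CT limit of 30). In p16-/- lungs Pik3ca was at -0.081 (without Actb), -0.61 (median target), -0.75 (plate column) and -0.17 (replicate block), Pik3cb at -0.29 (median target), Pik3r1 at 0.69 (CT limit of 30) and Pik3r2 at -1.16 (plate column). The interaction was -0.29 (median target), -0.054 (no normalization), -0.61 (plate column) and -0.0083 (replicate block) for Pik3ca, -0.15 (median target) and -0.050 (plate column) for Pik3cb, 0.91 (CT limit of 30) for Pik3r1 and -0.69 (plate column) for Pik3r2.

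Leaving out each lung in turn gave, in RA, 0.80 to 1.67 for Pik3ca, 1.17 to 2.09 for Pik3cb, 0.75 to 2.14 for Pik3r1 and -1.20 to 0.12 for Pik3r2, with 8 to 33 targets called, the count being 9 without wild-type RA lung 2, and 10 and 8 when p16-/- RA lung 2 or 3 was left out. Under CS the ranges were 0.95 to 2.16, 1.30 to 2.87, -0.49 to 2.63 and -1.05 to 0.85, with 28 to 38 called. Pik3r2 under CS turned positive without p16+/+ CS lung 2 (0.030) or 3 (0.10) and without p16-/- CS lung 1 (0.85) or 3 (0.021). For CS in p16+/+ lungs they were -0.62 to 0.25, -0.40 to 0.52, -0.16 to 0.41 and -0.050 to 0.52, in p16-/- lungs -0.47 to 0.74, -0.27 to 1.29, -1.67 to 1.45 and -0.15 to 1.76 (0 to 1 called, 1 without p16-/- CS lung 1), and for the interaction -0.31 to 0.90, -0.30 to 1.27, -1.88 to 1.24 and -0.42 to 1.49. Without p16-/- CS lung 1, an alternative chosen after seeing the data, the difference of Pik3ca over Pik3r1 under CS was -0.47. With that lung the difference was 0.69, or 0.94 with no CT limit. Lung numbers were shared between groups. Of 21 same-numbered pairs 8 had a correlation of their deviations over 0.1 (-0.67 to 0.56), and 3 of 15 lungs went best with their own number. With so few lungs per group this cannot show whether same-numbered lungs share more than a number. With the lung number as a replicate block, 30 targets were called in RA and 33 under CS, and Pik3ca was at 1.51 in RA (limma adjusted p = 0.204) and Pik3cb at 1.98 under CS (limma adjusted p = 0.0853). It changed no call of a subunit.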
